A study of Homo sapiens with 6 samples.

Results

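TRIM35 (ENSG00000104228), a gene for a ubiquitin ligase of the tripartite motif family, was followed in HCT116 cells that overexpress cytoglobin (CYGB). It is 1 of the 40173 genes in the deposited table, and its members were the 4 of 151453 transcript rows that carry the symbol TRIM35. The gene was chosen by its lower read counts in the 3 CYGB than in the 3 MOCK libraries, so these levels are given as a description, without a test. RNA came from HCT116, a human colorectal cancer line, infected either with a control virus (MOCK) or with a virus that expresses CYGB, and 3 libraries of each were sequenced. Both groups went through lentiviral infection, the CYGB insert was fused to a FLAG tag, and both lines were selected with puromycin. The labels call the MOCK cells wild type and the CYGB cells CYGB overexpression, at the same range of passages. Each group comes from 1 selected line, so the effect of CYGB cannot be told apart from other differences between the 2 transduced populations. The design text calls the libraries biological replicates, and nothing says that they came from separate transductions.

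TRIM35 is a member of the TRIM proteins, which share a RING finger, a B-box and a coiled coil at the amino end. The RING finger recruits a ubiquitin-conjugating enzyme (E2) and passes ubiquitin to a substrate, which marks that substrate for the proteasome or changes its activity. In TRIM35 and many of its relatives (group C-IV) a PRY-SPRY domain at the carboxyl end binds the partner protein. TRIM35 was first described as HLS5 in blood cells. It is known to bind the M2 form of pyruvate kinase (PKM), to ubiquitinate TRAF3 in antiviral RIG-I signalling and to act on the interferon regulator IRF7. In liver cancer it has been described as a tumour suppressor.

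Total counts ranged from 58138393 to 65252059 in the MOCK libraries and from 61601071 to 66035266 in the CYGB libraries. For CYGB itself the counts were 10, 28 and 34 in MOCK and 34935, 27681 and 32333 in CYGB, as labelled. Of the colon epithelial markers, EPCAM, CDH1, KRT8, KRT18, KRT19 and CDX2 had a mean of at least 17.2 CPM (read counts scaled to a common, normalized library size) in both groups. VIL1 was at 0.384 ± 0.131 CPM in MOCK and 0.715 ± 0.0626 CPM in CYGB (SD, n = 3 each). The markers PTPRC, CD3E, COL1A2, PECAM1 and ALB of other cells had means of at most 0.122 CPM in either group, while COL1A1 was at 46.4 ± 3.20 CPM in MOCK and 49.7 ± 3.53 CPM in CYGB. Genes often jumped between libraries of 1 group. Among 9949 genes that averaged 10 CPM or more, 1333 (13.4%) differed at least 2-fold between the highest and the lowest MOCK library, and 1344 (13.5%) did so among the CYGB libraries.

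TRIM35 RNA was far lower in every CYGB library than in any MOCK library. The summed rows had 1597, 1803 and 1728 counts in MOCK replicates 1 to 3. They had 240, 90 and 132 counts in CYGB replicates 1 to 3. After normalization the MOCK libraries held 33.8, 34.1 and 33.6 CPM and the CYGB libraries 4.75, 1.77 and 2.51 CPM. The groups did not overlap, and the lowest MOCK library was 7.07 times the highest CYGB library. On average MOCK held 33.8 ± 0.278 CPM and CYGB 3.01 ± 1.55 CPM (SD, n = 3 each), an 11.2-fold lower level. The log2 fold change of the model, CYGB over MOCK, was -3.49 ± 0.39 (SE, the standard error). Because RNA was measured in bulk, fewer cells with TRIM35 RNA and less of it in each cell cannot be told apart.

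The CYGB libraries kept 14.0%, 5.23% and 7.43% of the MOCK mean, so CYGB replicate 1 stood highest among them. Their coefficient of variation was 51.5%, against 8.06% from counting error alone at a mean of 154 counts. In MOCK the coefficient of variation was 0.821%, below the 2.42% that counting error gives at a mean of 1709 counts. The highest MOCK library was 1.02 times the lowest, a ratio that 116 (1.17%) of the same 9949 genes reached or undercut. The highest CYGB library was 2.68 times the lowest, a ratio that 828 (8.32%) of the same genes reached or exceeded. Among the 19987 genes tested, TRIM35 had rank 20 by size of fall. It had rank 5 of the 9947 tested genes that averaged 10 CPM or more. The study called a gene at an unadjusted p no higher than 0.01 if the level also differed 2-fold or more. At that threshold edgeR's quasi-likelihood test on summed genes called 57 genes (0.285% of those tested) lower in CYGB, TRIM35 among them. Another 56 (0.28%) were called higher. The paper reported far more changed mRNAs at its threshold. Its RNA sequencing methods name no test, so its count and these are not directly comparable. Groups of libraries that do not overlap, with CYGB the lower, were found in 5.31% of the genes tested. Nothing is read from these shares for TRIM35, since the same contrast chose it.

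**Figure D1:**
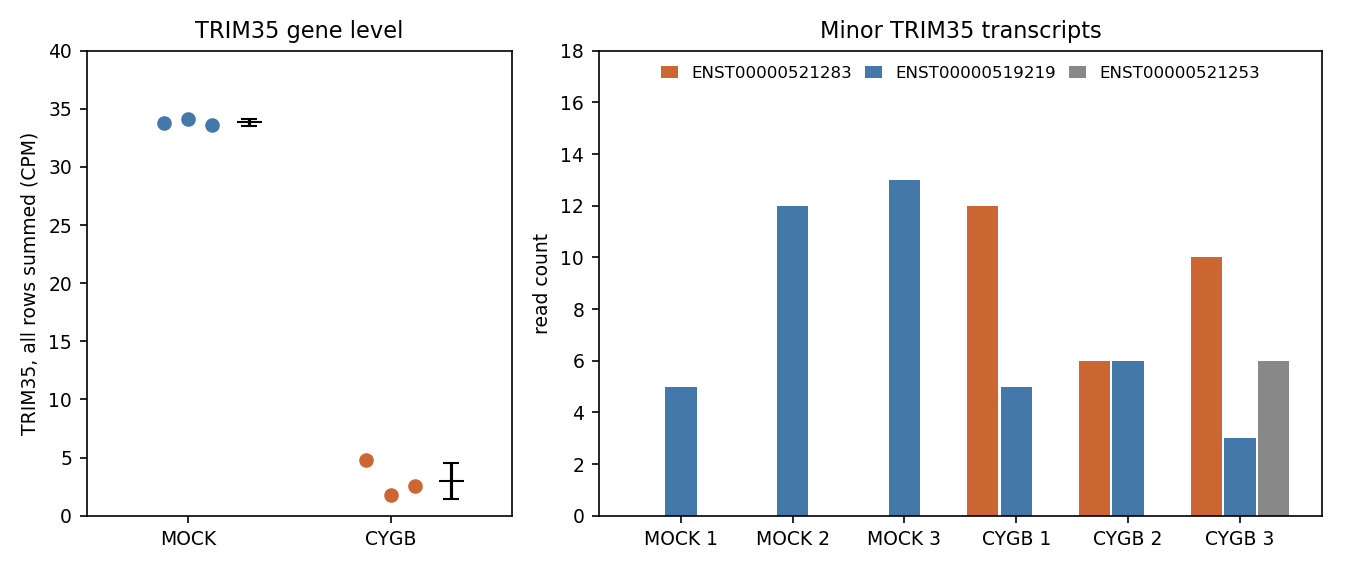
Left, TRIM35 level in CPM with all 4 rows summed, 1 point per library, with the group mean and SD in black; the 3 MOCK libraries sit between 33.6 and 34.1 CPM and the 3 CYGB libraries between 1.77 and 4.75 CPM. Right, read counts of the 3 minor TRIM35 transcripts in each library (MOCK 1 to 3, CYGB 1 to 3); ENST00000521283 has counts in the CYGB libraries only.

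The gene lies on the minus strand of chromosome 8 of GRCh38, from 27284887 to 27311319. Nearly all of its reads were in ENST00000305364, the full-length protein coding transcript. This transcript has 6 exons and 4229 bases, has a coding region of 1479 bases, 493 codons, and ends in a 3′ UTR of 2666 bases. Its counts were 1592, 1791 and 1715 in MOCK and 223, 78 and 113 in CYGB. Its log2 fold change was -3.63 ± 0.46 (SE), and again no CYGB library reached a MOCK library. Of its 150-base windows, 71.0% occur in no other TRIM35 transcript, so many of its reads could be told from those of the others. It was the only one of the 4 rows with enough counts to enter the test.

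The other 3 rows were small. ENST00000519219, a retained intron transcript of 423 bases around exons 1 to 3, was counted 5, 12 and 13 times in MOCK and 5, 6 and 3 times in CYGB. Those groups overlapped. ENST00000521283 begins inside exon 3 of the main transcript, has no annotated start codon and splices out a stretch within the last exon. It had 0 reads in each MOCK library and 12, 6 and 10 reads in the CYGB libraries. Against a floor of 3 counts over the MOCK group it was at least 9.29-fold higher in CYGB. Other transcript rows with 0 reads in every library of one group and reads in the other were not counted. Whether such a pattern is rare among all rows cannot be told, so nothing is read from it. ENST00000521253, which skips exons 2 and 4 of the main transcript, had 0 reads in MOCK and 0, 0 and 6 reads in CYGB, so it was seen in 1 library.

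As a share of the gene, the full-length transcript held 99.4% of 5128 counts in MOCK and 89.6% of 462 counts in CYGB. By library its share was 99.7%, 99.3% and 99.2% in MOCK and 92.9%, 86.7% and 85.6% in CYGB. ENST00000521283 took 6.06% of the CYGB counts. In MOCK it had 0 of 5128 counts, which allows a share of up to 0.0585%. The exact 95% Clopper-Pearson interval of its share was 2.61 to 8.57% in CYGB replicate 1, 2.49 to 13.9% in replicate 2 and 3.69 to 13.5% in replicate 3, and these intervals cover counting error only. Both the full-length transcript and the gene were therefore lower in CYGB, while a short row of few reads was counted in CYGB cells alone. How reads were divided among isoforms is not stated, and all exons of ENST00000521283 lie within exons of the main transcript. Rows of the table without a gene carry no position and could not be compared with this locus. Of those 21225 rows, 53 were higher in every CYGB library than in any MOCK library, with a mean higher by at least the 30.8 CPM by which TRIM35 was lower. Rows that were lower by as much were not counted, so whether 53 is many cannot be told. The part of these rows in the result was not tested.

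The rest of the TRIM family was spread around 0. Of 66 other family genes in the table, 56 had enough counts to be tested, and 29 had a log2 fold change above 0 and 27 below. Their median was 0.01, against -0.01 over all genes tested. At the threshold of the study, 0 of the 56 passed with edgeR's quasi-likelihood test, where 0.565% of all genes did. With the same test 5 of the 56 had an unadjusted p under 0.05, against 4.54% of all genes. An adjusted p under 0.05 was given to 0 of them and to 0.055% of all genes. A difference of 2-fold or more was seen in 2 of the 56 (MID1 and TRIM65) and in 5.41% of all genes. DESeq2 called 2 of the 56, TRIM65 and MID1, and 1.32% of all genes. The exact test of edgeR called MID1 alone and 1.26% of all genes. An adjusted p under 0.05 was given by DESeq2 to MID1 and TRIM6 and to 0.54% of all genes, and by the exact test to 0 of the 56 and 0.315% of all genes. In the group C-IV that TRIM35 belongs to, 24 genes were tested, with a median log2 fold change of 0.05 and a lowest value of -0.72.

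**Figure D2:**
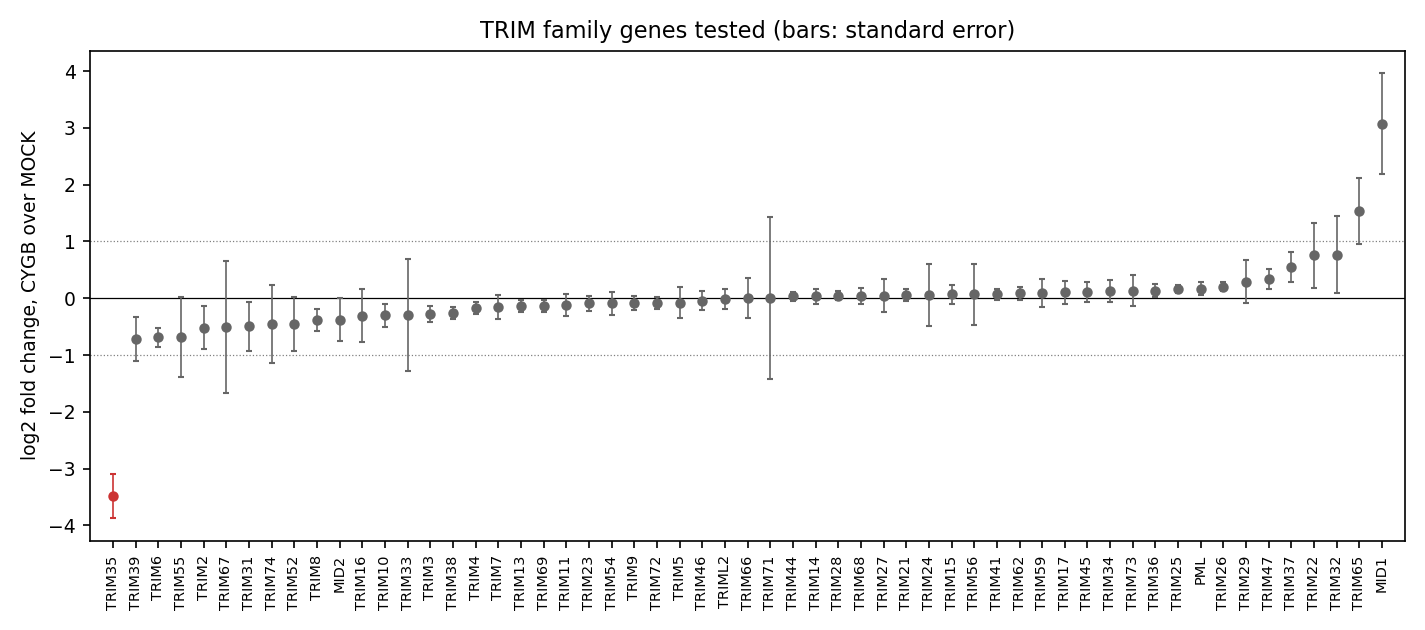
Log2 fold change of CYGB over MOCK for the 57 TRIM family genes tested, in order, with standard errors; dotted lines mark a 2-fold difference. TRIM35 (red) is at -3.49, the next lowest member, TRIM39, at -0.72 and the highest, MID1, at 3.08.

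The members farthest from 0 were uneven within a group. MID1, a ligase that sits on microtubules, had 8.04, 4.35 and 7.19 CPM in MOCK and 77.5, 81.0 and 6.74 CPM in CYGB. Replicates 1 and 2 of CYGB were high, and replicate 3 was within the MOCK range (log2 fold change 3.08 ± 0.89, SE, edgeR adjusted p = 0.963, DESeq2 adjusted p = 0.0202). TRIM65, a ligase for the RNA sensor MDA5, had 11.1, 14.1 and 7.34 CPM in MOCK and 10.0, 36.9 and 47.5 CPM in CYGB. Here CYGB replicate 1 stayed within MOCK (log2 fold change 1.54 ± 0.58, SE, edgeR adjusted p = 0.963).

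TRIM39 had 18.7, 18.5 and 16.3 CPM in MOCK and 17.9, 7.95 and 6.70 CPM in CYGB, a log2 fold change of -0.72 ± 0.39 (SE). Its groups overlapped through CYGB replicate 1. TRIM6, a C-IV member that acts in interferon signalling, had 14.8, 19.0 and 17.3 CPM in MOCK and 9.48, 10.1 and 12.1 CPM in CYGB. Its groups did not overlap, and its log2 fold change was -0.69 ± 0.16 (SE), at an edgeR adjusted p = 0.963. With DESeq2 its adjusted p was 0.0408, at a fold change under the 2-fold of the study's threshold. Groups without overlap occurred in 8 of the 56 genes, 3 higher and 5 lower in CYGB, and in 11.0% of all genes tested (5.72% higher and 5.31% lower).

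Set against the family per length, TRIM35 stood in the upper middle of the order in MOCK and in the lower part in CYGB. Its level was 8.42 ± 0.174 CPM per kilobase in MOCK, which gave rank 20 of 67 members, and 1.18 ± 0.430 CPM per kilobase in CYGB, rank 47 (SD, n = 3 each). Its rank was 18 to 20 in the MOCK libraries and 44 to 49 in the CYGB libraries. On this scale the minor short rows weigh more, so the 2 means lie closer than in CPM. In MOCK its neighbours in the order were TRIM11 (10.1 ± 3.53 CPM per kilobase) and TRIM24 (8.21 ± 1.72 CPM per kilobase), neither of which differed from it by more than its own SD. In CYGB the neighbours were TRIM34 (1.56 ± 0.133 CPM per kilobase) and TRIM54 (1.10 ± 0.193 CPM per kilobase), both within the SD of TRIM35. TRIM28, the corepressor of zinc finger proteins, was the highest member in each of the 6 libraries, at 274 ± 6.46 CPM per kilobase in MOCK and 298 ± 26.9 CPM per kilobase in CYGB.

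**Figure D3:**
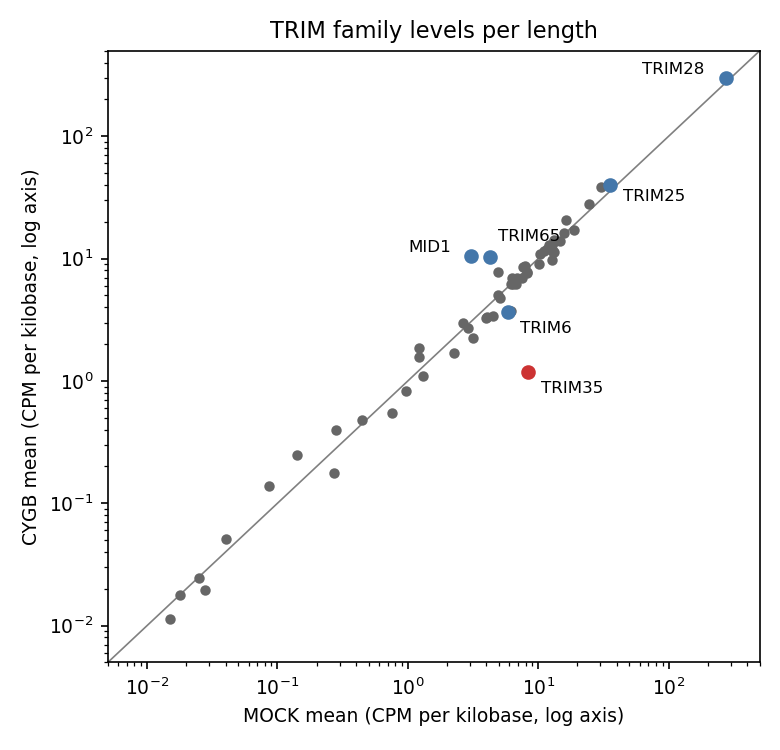
Mean level per length of the TRIM family genes in MOCK (x axis) and CYGB (y axis), in CPM per kilobase on log axes, for members above 0 in both; the grey line marks equal levels. TRIM35 (red) lies at 8.42 in MOCK and 1.18 in CYGB, below the line, and TRIM28 lies at the top of both axes.

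Of the known partners of TRIM35, none of the 5 tested passed the threshold, against 0.565% of all genes with edgeR's quasi-likelihood test. PKM, the pyruvate kinase of glycolysis, had 3106, 3063 and 3349 CPM in MOCK and 2277, 2916 and 2867 CPM in CYGB. All CYGB libraries were below all MOCK libraries, as in 5.31% of all genes tested. The log2 fold change was -0.24 ± 0.11 (SE), at an edgeR adjusted p = 0.963. PKM has 25 rows in the table, and 0 of the 20 tested were called, against 1.02% of all transcripts tested. Of the 25 rows, 2 had 0 counts in one library and over 1000 in another, so the M1 and M2 forms were not compared.

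TRAF3, the adaptor that TRIM35 ubiquitinates, had 46.7, 32.4 and 27.5 CPM in MOCK and 43.6, 46.4 and 47.8 CPM in CYGB. The groups overlapped, and the log2 fold change was 0.37 ± 0.21 (SE), at an edgeR adjusted p = 0.963. IRF7 had 23.1, 18.8 and 21.8 CPM in MOCK and 18.8, 21.5 and 27.5 CPM in CYGB, a log2 fold change of 0.09 ± 0.18 (SE). PIAS3, a SUMO ligase, was at a log2 fold change of -0.08 ± 0.13 (SE). GATA1, the erythroid transcription factor that HLS5 binds, had at most 6 counts in a library and was not tested. With edgeR's quasi-likelihood test 0 of the 5 tested partners passed the threshold, against 0.565% of all genes. By the same test 0 had an unadjusted p under 0.05, against 4.54% of all genes. DESeq2 and edgeR's exact test also called 0, against 1.32% and 1.26% of all genes. A list of 5 genes would hold few or no calls at these shares, so nothing is read from the 0.

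RIG-I signalling, in which the RNA sensor activates MAVS and the kinases TBK1 and IKBKE through TRAF3, was next compared. Of its 17 genes in the table, 16 were tested and 0 passed the threshold with edgeR's quasi-likelihood test, DESeq2 or edgeR's exact test. Of all genes, 0.565%, 1.32% and 1.26% passed with these tests. At these shares 16 genes would hold few or no calls, so nothing is read from the 0. With edgeR's quasi-likelihood test, 1 gene had an unadjusted p under 0.05, against 4.54% of all genes. This was TRIM25, the ligase that activates RIG-I, at a log2 fold change of 0.16 ± 0.06 (SE). The median log2 fold change of the list was 0.03, and 10 genes lay above 0 and 6 below. The highest values were those of TRAF3 (0.37) and IKBKE (0.25 ± 0.20, SE). The lowest were those of TANK (-0.34 ± 0.24, SE), a scaffold that binds TRAF3, and TRAF6 (-0.15 ± 0.11, SE). IFNB1, the interferon itself, had too few counts to test, and ISG15 and IFIT1, genes it induces, were at -0.04 ± 0.07 (SE) and 0.05 ± 0.07 (SE).

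The ubiquitin genes, the E1 enzymes and the E2 enzymes supply any RING ligase. All 37 genes of this list were tested. With edgeR's quasi-likelihood test 0 passed the threshold, against 0.565% of all genes. By the same test 4 had an unadjusted p under 0.05 (4.54% of all genes did). DESeq2 and edgeR's exact test each called 1, against 1.32% and 1.26% of all genes. With DESeq2 1 had an adjusted p under 0.05, against 0.54% of all genes. Groups without overlap were found in 2 genes higher and 3 lower in CYGB, against 5.72% and 5.31% of all genes tested. The median log2 fold change was -0.03, with 15 genes above 0 and 22 below.

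UBE2V2, an E2 variant that works with UBE2N, had 96.5, 148 and 134 CPM in MOCK and 91.9, 85.2 and 89.7 CPM in CYGB. Its groups did not overlap, and the log2 fold change was -0.50 ± 0.16 (SE), at an edgeR adjusted p = 0.963. UBE2K had 98.9, 104 and 119 CPM in MOCK and 268, 242 and 105 CPM in CYGB, high in CYGB replicates 1 and 2 only, with a log2 fold change of 0.93 ± 0.34 (SE). UBE2G2, an E2 of degradation at the endoplasmic reticulum, had 18.5, 61.3 and 76.4 CPM in MOCK and 102, 88.9 and 89.6 CPM in CYGB. Its CYGB libraries were all above its MOCK libraries, and its log2 fold change was 0.84 ± 0.48 (SE). Per transcript, 2 of 210 rows of this list passed the threshold (0.952%, against 1.02% of all transcripts tested). They were ENST00000371677 of UBE2V1, counted 624, 698 and 7008 times in MOCK and 0 times in each CYGB library, and ENST00000462569 of UBE2G2, which was higher in CYGB. Their adjusted p was 0.636 and 0.859 by edgeR's quasi-likelihood test. As a whole gene, neither UBE2V1 nor UBE2G2 was called in any run. Whether reads were divided differently among the rows of each gene was not tested. In the TRIM family, the partners and the RIG-I list, 0 of 198, 0 of 57 and 0 of 78 transcripts passed. At a share of 1.02% such lists would hold few or no calls, so nothing is read from the 0.

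None of the 7 tested genes around TRIM35 on chromosome 8 passed the threshold, against 0.565% of all genes with edgeR's quasi-likelihood test. GENCODE 29 places 27 other genes within 500 kb, of which 19 are in the table and 7 had enough counts to be tested, all on the side of the TRIM35 5′ end. With that test 1 of the 7 had an unadjusted p under 0.05, against 4.54% of all genes. DESeq2 and edgeR's exact test called 0, against 1.32% and 1.26% of all genes. At these shares 7 genes would hold few or no calls, so nothing is read from the 0. Groups without overlap, with CYGB the higher, were found in 2 of the 7 (CLU and SCARA3) and in 5.72% of all genes tested. Their log2 fold changes ran from -0.15 to 1.09, with a median of 0.06. On the other side, STMN4, the next gene, had mean levels of at most 0.0787 CPM in either group.

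PTK2B, a tyrosine kinase related to focal adhesion kinase, is transcribed in the opposite direction, and its annotated 5′ end lies 163 bases from that of TRIM35. It had 21.7, 26.6 and 25.0 CPM in MOCK and 18.8, 23.7 and 23.4 CPM in CYGB. The groups overlapped, and the log2 fold change was -0.15 ± 0.15 (SE), at an edgeR adjusted p = 0.963. The 3 PTK2B rows that begin within 1000 bases of the TRIM35 5′ end were counted 289, 469 and 55 times together in MOCK and 145, 231 and 208 times in CYGB, so the CYGB values lay inside the MOCK range.

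CLU, the secreted chaperone clusterin, was 286 kb away and had 131, 112 and 109 CPM in MOCK and 152, 148 and 153 CPM in CYGB. It was higher in each CYGB library (log2 fold change 0.36 ± 0.09, SE, edgeR adjusted p = 0.963). SCARA3, a scavenger receptor, had 33.8, 8.40 and 71.9 CPM in MOCK and 77.3, 80.2 and 86.3 CPM in CYGB, a log2 fold change of 1.09 ± 0.68 (SE). ESCO2, a cohesin acetyltransferase, had 70.7, 7.91 and 8.78 CPM in MOCK and 54.0, 53.6 and 24.8 CPM in CYGB, a log2 fold change of 0.60 ± 0.91 (SE). Both were spread widely over the MOCK libraries. The log2 fold change of SCARA3 was 1.95 without MOCK replicate 3 and 0.62 without MOCK replicate 2. Without MOCK replicate 1, ESCO2 passed the threshold at a log2 fold change of 2.40 (adjusted p = 0.645 by edgeR's quasi-likelihood test). EPHX2, an epoxide hydrolase, CCDC25 and the mitotic kinase PBK were at -0.11 ± 0.16 (SE), 0.06 ± 0.23 (SE) and -0.03 ± 0.10 (SE). Per transcript, 1 of 34 rows near TRIM35 passed the threshold (2.94%, against 1.02% of all transcripts tested), ENST00000356537 of CCDC25, which was higher in CYGB (0.54% of all transcripts tested were called higher).

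**Figure D4:**
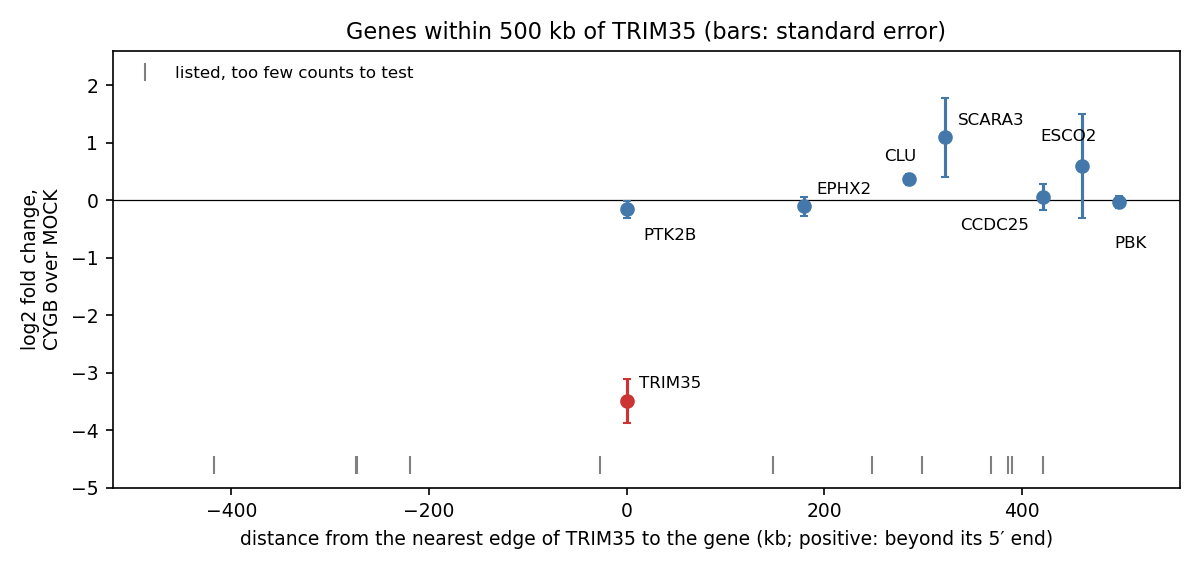
Log2 fold change of CYGB over MOCK, with standard errors, for the 7 tested genes within 500 kb of TRIM35 (red), by distance in kb from the nearest edge of TRIM35; grey ticks mark genes listed with too few counts to test. TRIM35 is at -3.49, and PTK2B, which begins 163 bases away, is at -0.15.

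To describe which genes ran most like TRIM35, log2 CPM (with 0.5 added) was correlated with that of TRIM35 over the 6 libraries for 9948 other genes that averaged 10 CPM or more. The libraries form 2 groups, so a high Pearson r mainly records a group difference with small spread, and no p is given. It was above 0.95 for 25 genes and below -0.95 for 22. The most similar were DCTD, a deaminase of nucleotide synthesis (r = 0.997), CASTOR3 (r = 0.987), COX11, an assembly factor of cytochrome oxidase (r = 0.983), KDM3A, a histone H3 demethylase (r = 0.982), and USP1, a deubiquitinase (r = 0.982).

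All 5 were lower in each CYGB library than in any MOCK library, which their choice by a high r largely fixed. Of all genes tested, 5.31% were lower in this way. Each of the 5 was lower by less than TRIM35. DCTD had 62.9, 63.6 and 61.8 CPM in MOCK and 42.3, 32.4 and 35.9 CPM in CYGB, a log2 fold change of -0.77 ± 0.12 (SE). KDM3A had 227, 260 and 257 CPM in MOCK and 62.0, 55.1 and 64.8 CPM in CYGB, a log2 fold change of -2.03 ± 0.10 (SE). COX11, USP1 and CASTOR3 were at -0.81, -0.67 and -0.32. CASTOR3 has a near-identical copy, so its reads could have been split, which was not tested.

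The most opposite were PLK2, a kinase induced by p53 (r = -0.995), PIK3R1, a regulatory subunit of PI3 kinase (r = -0.995), RBL2, the pocket protein p130 (r = -0.991), PITPNM2 (r = -0.986) and SUSD2 (r = -0.982). RBL2 had 6.03, 5.55 and 6.26 CPM in MOCK and 13.9, 26.0 and 18.3 CPM in CYGB, a log2 fold change of 1.71 ± 0.25 (SE). The other 4 had log2 fold changes of 0.11 to 0.38, although none of their CYGB libraries reached down to a MOCK library. The choice by a low r largely fixed this, and 5.72% of all genes tested were higher in this way. A high correlation with TRIM35 thus covered changes of very different size.

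**Figure D5:**
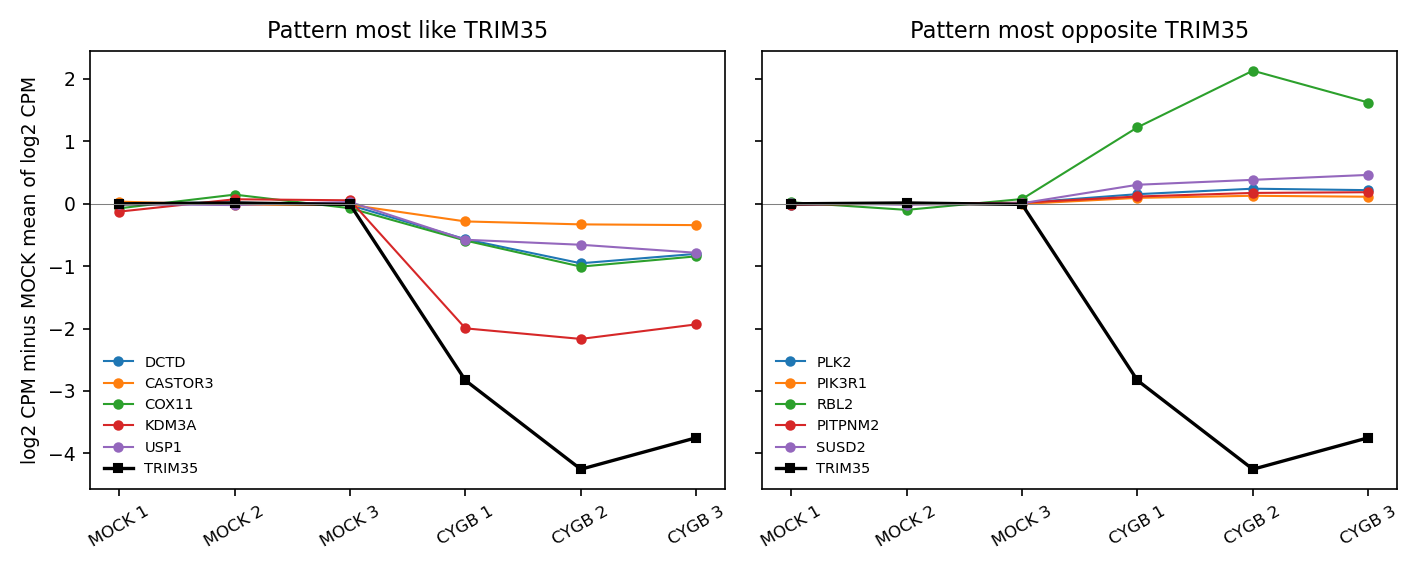
Log2 CPM in each library minus the mean over the MOCK libraries, for TRIM35 (black) with the 5 genes most like it (left) and the 5 most opposite (right); lines join the values of 1 gene and mark no order of libraries. TRIM35, at 33.8 CPM in MOCK and 3.01 CPM in CYGB on average, drops farther than the 5 genes most like it, of which KDM3A (248 to 60.6 CPM) drops most, and RBL2 (5.94 to 19.4 CPM) stands highest among the opposite genes.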

How the data were processed

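RNA of 3 MOCK and 3 CYGB libraries of HCT116 cells was read as 150-base pairs on an Illumina NovaSeq. The authors deposited read counts per transcript, unnormalized. The submitters' notes name HISAT2, DESeq2 and hg19, but 99.48% of the 151393 transcripts found in GENCODE 29 stand at their GRCh38 positions there, so GRCh38 coordinates are given. How reads were assigned to isoforms is not given in the sources used here. Columns of the authors' own fold changes and p-values were not used. The 21225 rows without a gene (18.6 to 19.5% of counts) stayed out of library sizes and tests.

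Transcript counts were summed per gene. Genes and transcripts that passed filterByExpr (minimum count 10), 19987 and 66609 of them, were tested with edgeR 4.0.16 (quasi-likelihood test, TMM normalization, Benjamini-Hochberg adjustment) in R 4.3.3. A gene was called at p of at most 0.01 with a ratio of at least 2 or at most 0.5, the threshold of the study. CPM used TMM library sizes. Levels per length are the sum of each row's CPM divided by its length in kilobases. Exact 95% Clopper-Pearson intervals and the limit of 3 counts cover counting error only. The scripts were tested on simulated data. Common biological variation was 36.6% for genes and 78.9% for transcripts.

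Named were TRIM35 and its rows, its partners, the tested genes within 500 kb, the list members called or with the 2 largest fold changes each way (mean of at least 1 CPM) and the 5 genes most and least like TRIM35. TRIM6, TRIM25, TRIM28, ISG15, IFIT1, STMN4, IFNB1, the neighbours in the order of levels and the named marker genes and transcripts of other genes were added after their values were seen. TRIM35 and the lists were chosen with earlier results of these data known. Same-numbered libraries were not paired: their deviations correlated at 0.0159, 0.00487 and 0.0253. Alternatives were DESeq2 (1.42.0) and its size factors, edgeR's exact test, other filters, a replicate block, the rows without a gene in library sizes, and each library left out. Single values of some list members are not reported here, although the counts of their lists include them.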

Additional observations from a re-analysis of the deposited data

How the results depend on the processing

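The TRIM35 log2 fold change was -3.49 and ran from -3.98 without CYGB replicate 1 to -3.22 without CYGB replicate 2. It was -3.49 with DESeq2 and -3.61 with the replicate block. ENST00000305364 was at -4.16 without CYGB replicate 1, and its values with 1 library left out ran from -4.16 to -3.34. With no filter on low counts, 2 TRIM35 rows lay past the threshold in place of 1, the added ENST00000521283 having 0 counts in MOCK. This is a description and no test, since the same contrast chose TRIM35. In the other TRIM genes 0 calls became 2 with DESeq2, 1 with edgeR's exact test, 1 with no filter, and 0 to 2 with 1 library left out (TRIM39 and TRIM65 without CYGB replicate 1, MID1 without CYGB replicate 3). In the ubiquitin list 0 became 1 with DESeq2, 1 with the exact test and 1 with no filter, and 0 to 1 with 1 library left out (1 without MOCK replicate 2, and UBE2K without CYGB replicate 3). Within 500 kb it was 0 to 1 (ESCO2 without MOCK replicate 1). Partners and the RIG-I list had 0 calls in every alternative run. With 1 library left out the log2 fold change turned for PBK (-0.11 to 0.059, the latter without CYGB replicate 3), for CCDC25 (-0.072 to 0.25, below 0 without MOCK replicate 2 and without CYGB replicate 2 or 3) and for IRF7 (-0.070 to 0.21, below 0 without CYGB replicate 3), all close to 0. Over all genes 113 calls became 263 with DESeq2, 251 with the exact test, 62 with a mean of at least 50 counts, 78 with the replicate block and 124 to 177 with 1 library left out, the highest without MOCK replicate 3. Over transcripts 681 became 1506, 1070, 319 and 291 in the same order of settings, and 961 to 1209 with 1 library left out. The replicate numbers were shared in name only, and the block called 0 genes of each list. The cause of these shifts was not tested. With 90 to 240 TRIM35 counts in a CYGB library, its minor transcripts rest on at most 12 reads each.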
